A study of Mus musculus with 3 samples.

Results

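Skeletal muscle sarcomere and calcium handling genes are described here, 42 of the 48795 genes counted in polysomal RNA of mouse bone marrow cells. They were listed by gene symbol for their known place in striated muscle, with earlier results from these libraries in view, and all 42 matched a GENCODE identifier. They encode 13 thick filament and M-line proteins, 10 thin filament proteins, 10 proteins of the Z-disc, titin and linked cytoskeleton, 5 calcium handling proteins and 4 proteins of energy and oxygen supply. Their read counts in the same libraries were known when they were chosen, so these counts are given as a description and not as evidence.

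The study compared marrow cells of wild-type (WT) mice, with 2 libraries, and of mice with the genotype label Mat KO, with 1 library. Cells of every group received cycloheximide, which holds ribosomes on mRNA, before polysomes were isolated by sucrose gradient centrifugation. The series title concerns small nucleolar RNAs of the imprinted Dlk1-Gtl2 locus in blood stem cells, and muscle genes were no stated subject. The sources used here do not state the strain, sex or age, the allele behind the Mat KO label, the way the marrow was collected, or whether the WT libraries came from separate mice.

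Muscle contracts when myosin heads of the thick filament pull on actin of the thin filament within the sarcomere, the repeating unit between 2 Z-discs. Calcium released from the sarcoplasmic reticulum binds troponin C and moves tropomyosin aside, and a calcium pump then returns it to the reticulum. Fast and slow fibres use different genes for most of these proteins, so the isoforms counted show which fibre type the RNA resembles. Most of these genes are hallmarks of striated muscle fibres, though some, such as Tpm1, Tpm2 and Des, are not restricted to them. Marrow blood cells build their contractile cytoskeleton mainly from non-muscle relatives.

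Sequences upstream of the genes are shown for the 3 members with the most counts in WT 1 that have a RefSeq promoter entry, and for the only member counted in the Mat KO library. They are read 5′ to 3′ from RefSeq on GRCm38.p6, end at or before the RefSeq start, and leave out bases that GENCODE annotates as exon. Capitals mark matches on either strand to CANNTG (the E box bound by myogenic factors), to the TATA box letters TATAAA, to the MCAT motif CATTCC, to the CArG box or to the MEF2 motif.
Myh4, chr11:67237574-67237811, plus strand: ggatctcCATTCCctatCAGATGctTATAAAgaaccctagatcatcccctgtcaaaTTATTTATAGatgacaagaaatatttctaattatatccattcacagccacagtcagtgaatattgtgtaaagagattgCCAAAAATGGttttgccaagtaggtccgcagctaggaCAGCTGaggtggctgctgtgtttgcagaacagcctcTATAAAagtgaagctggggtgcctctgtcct
Acta1, chr8:123894776-123895025, minus strand: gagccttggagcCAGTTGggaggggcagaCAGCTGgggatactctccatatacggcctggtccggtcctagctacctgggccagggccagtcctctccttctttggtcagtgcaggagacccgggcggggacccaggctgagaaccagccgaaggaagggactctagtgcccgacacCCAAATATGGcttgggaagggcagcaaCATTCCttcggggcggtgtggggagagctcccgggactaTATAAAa
Atp2a1, chr7:126463109-126463323, minus strand: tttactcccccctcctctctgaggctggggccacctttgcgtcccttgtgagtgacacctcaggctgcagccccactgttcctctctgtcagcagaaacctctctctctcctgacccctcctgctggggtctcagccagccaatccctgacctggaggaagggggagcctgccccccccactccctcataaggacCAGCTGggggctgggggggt
Mybpc2, chr7:44524670-44524919, minus strand: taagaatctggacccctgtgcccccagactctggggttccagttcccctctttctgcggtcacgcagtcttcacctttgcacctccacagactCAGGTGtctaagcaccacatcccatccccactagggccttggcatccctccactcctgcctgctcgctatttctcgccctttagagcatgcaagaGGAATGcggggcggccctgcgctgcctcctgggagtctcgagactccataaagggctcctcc

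The window of Myh4, the gene of the fastest myosin heavy chain, held every motif searched, with a CArG box from base -104 to -95, a MEF2 motif from -182 to -173 and E boxes from -221 to -216 and from -67 to -62, counted from the RefSeq start. A reverse TATAAA from -179 to -174 lies inside that MEF2 match. Acta1, skeletal muscle alpha-actin, held 2 E boxes, a CArG box, an MCAT match and a TATAAA, whereas Atp2a1 held 1 E box, and Mybpc2 an E box and an MCAT match. Over the 250 bases before the start, 34 members had a RefSeq entry and Myoz1, Actn3, Tcap, Myom2, Tnni2, Neb, Tnnt3 and Myot had none. The CArG box was found in 5 of these 34 members (14.7%) against 1.62% of all 27025 genes with an entry, and the MEF2 motif in 6 (17.6%) against 3.42%. CATTCC was found in 12 (35.3%) against 14.4%, CANNTG in 29 (85.3%) against 69.3%, and TATAAA in 7 (20.6%) against 14.3%. Members counted in WT 1 and members at 0 there both held these motifs, with E boxes in 18 of 23 and 11 of 11. A match describes letters in a window and shows no binding.

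The libraries were shallow and differed in content. WT 1, WT 2 and Mat KO held 64547, 239429 and 125871 gene-assigned counts. The 4 most counted features were Lars2, mt-Rnr1, mt-Rnr2 and CT010467.1, outside which 20903, 2301 and 14430 counts remained, and shares below are per 10000 of these. A count of 0, taken to allow 3 counts, allows up to 1.44, 13.0 and 2.08 per 10000. Marker lists of the labelled marrow set WT 1 apart: 4 globin genes summed to 401, 0 and 0 counts, and 6 neutrophil granule genes to 450, 0 and 0, so in WT 2 and the Mat KO library these defining markers were at 0.

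The muscle genes were read almost wholly in WT 1. The 42 members summed to 418 counts there, against a single count for WT 2 and 12 for Mat KO. This is 200.0 per 10000 (95% Wilson interval 182 to 219.8), 4.35 (0.767 to 24.6) and 8.32 (4.76 to 14.5), so the WT 1 interval lay above both others, while those of WT 2 and Mat KO overlapped. At the share of WT 1, WT 2 would have held 46.0 counts and the Mat KO library 289. The share of WT 1 was 46.0 times that of WT 2 (exact interval 8.21 to 1822) and 24.0 times that of the Mat KO library (13.6 to 46.9). These intervals cover counting error only and compare libraries, not genotypes.

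Counts fell on many members in WT 1 and on 1 member in each other library. In WT 1, 30 of 42 members had a count, against 19.3% of 21759 protein-coding genes, and 13 had at least 10, against 1.75%. In WT 2, 1 member had a count, against 1.74% of protein-coding genes, and in the Mat KO library 1, against 2.63%. Among the 30, 28 were counted in WT 1 alone, Flnc also in WT 2 and Mybpc2 also in the Mat KO library. Sharing was rare among all genes too: 4349 had a count in WT 1, of which WT 2 shared 237 and Mat KO shared 293. A count in WT 1 alone was thus the usual case and no trait of muscle genes. All 13 members with at least 10 counts in WT 1 were at 0 in both other libraries. The same held for 284 of the 380 nuclear protein-coding genes with at least 10 counts there (74.7%), so an absence from the other libraries was common among genes of this count. In bulk RNA, fewer cells of a type and less RNA per cell cannot be told apart.

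**Figure D1:**
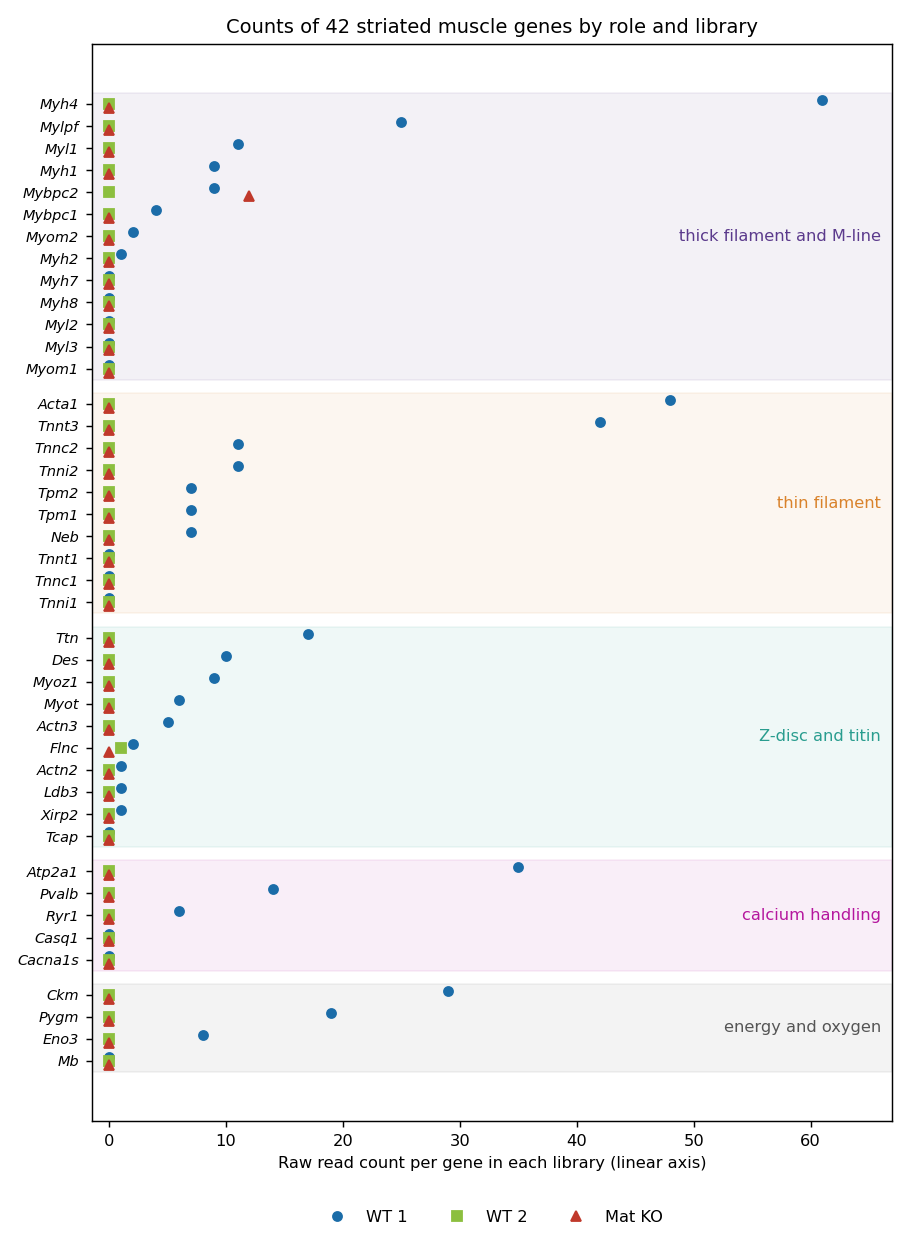
Raw read counts (x axis, linear) of the 42 members (y axis, grouped by role) in WT 1 (circles), WT 2 (squares) and the Mat KO library (triangles), 1 library each, with no error bars. Circles reach 61 for Myh4, while squares and triangles sit at 0 except for Flnc in WT 2 and Mybpc2 in the Mat KO library.

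Thick filament genes summed to 122, 0 and 12 counts, given here and below in the order WT 1, WT 2, Mat KO. Myh4 (ENSMUSG00000057003, GRCm38 chromosome 11 from 67238029 to 67260446), the fast IIb myosin heavy chain, had 61, 0 and 0 counts, the most of any member. In WT 1 it ranked 16th by count among nuclear protein-coding genes other than Lars2. Its share there was 29.2 per 10000 (22.7 to 37.5). This is 2.24-fold the limit that 0 counts allow in WT 2 and 14.0-fold that of the Mat KO library, leaving out the counting error of WT 1. Its neighbours in the skeletal myosin cluster were lower: Myh1, the fast IIx chain, had 9, 0 and 0 counts, Myh2, the fast IIa chain, 1, 0 and 0, and Myh8, the perinatal chain, 0 in every library. Mylpf, the fast regulatory light chain (chromosome 7 from 127208890 to 127214298), had 25, 0 and 0, and Myl1, the fast essential light chain, 11, 0 and 0. Myom2, which crosslinks thick filaments at the M-line, had 2, 0 and 0, and its relative Myom1 had 0 in each library.

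The myosin genes are near-identical over parts of their length, which limits how reads can be divided among them. Of the 50-base windows in their transcripts, 18.9% for Myh4, 30.5% for Myh1 and 24.6% for Myh2 also occurred in a transcript of another gene, and of 100-base windows 3.85%, 14.0% and 9.49%. The longest coding stretch within 1 exon of Myh4 that Myh1 and Myh2 share letter for letter is 109 bases of exon 23, printed to show what such a read would look like.
Myh4, chr11:67252224-67252332, plus strand, GRCm38: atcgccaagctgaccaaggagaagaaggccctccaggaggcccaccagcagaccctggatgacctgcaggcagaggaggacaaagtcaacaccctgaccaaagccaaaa
Reads aligned to several places were recorded apart from genes, so counts of these 3 genes may be too low. The sources used here give no read length.

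Mybpc2 was the only member counted in the Mat KO library. It encodes the fast isoform of myosin-binding protein C (ENSMUSG00000038670, chromosome 7 from 44501699 to 44524656) and had 9, 0 and 12 counts. Its share was 4.31 per 10000 (2.27 to 8.18) in WT 1 beside 8.32 (4.76 to 14.5) in Mat KO, with overlapping intervals and a WT 1 to Mat KO ratio of 0.518 (exact interval 0.193 to 1.34). The Mat KO value lay above both WT libraries, as did that of 10.6% of 4649 protein-coding genes with a count in any library. No other thick filament, thin filament or Z-disc gene accompanied it there: the other 41 members summed to 0 counts in the Mat KO library against 409 in WT 1. Their WT 1 share was 94.1-fold the limit that 0 counts allow in the Mat KO library. Counts in that library were concentrated on few genes in general, where the median counted protein-coding gene had 10 counts, against 2 in WT 1 and 1 in WT 2. Whether repeated reads of few molecules contribute was not tested.

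Thin filament genes gave the largest sum of the 5 roles in WT 1, with 133 counts there and 0 in both other libraries, or 63.6 per 10000 (53.7 to 75.4) beside 58.4 (48.9 to 69.6) for the thick filament, intervals that overlap. Acta1 (ENSMUSG00000031972, chromosome 8 from 123891769 to 123894751) had 48, 0 and 0 counts. Tnnt3, the fast troponin T that ties the troponin complex to tropomyosin (chromosome 7 from 142498836 to 142516009), had 42, 0 and 0. Tnni2, the inhibitory subunit of fast troponin, lies 54425 bases from Tnnt3 with Lsp1 between them, and had 11, 0 and 0 counts. Tnnc2, the calcium-binding subunit of fast troponin, also had 11, 0 and 0. Of its exon length, 74.0% overlaps Ube2c on the opposite strand, which had 0 counts in every library. The strand setting is not known, so reads on the shared bases may have been recorded apart from both genes. The count and level of Tnnc2 may therefore be too low. The tropomyosin genes Tpm1 and Tpm2 each had 7, 0 and 0, and Neb, nebulin, the giant protein that runs along the thin filament, also 7, 0 and 0.

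Z-disc, titin and linked cytoskeleton genes were more thinly counted, at 52, 1 and 0 counts. Ttn, titin, which spans from the Z-disc to the M-line, had 17, 0 and 0 counts. Des, desmin, the intermediate filament that links neighbouring Z-discs, had 10, 0 and 0. Myoz1, a fast fibre protein that binds calcineurin at the Z-disc, had 9, 0 and 0, Myot, myotilin, 6, 0 and 0, and Actn3, the alpha-actinin of fast fibres, 5, 0 and 0. Actn2, the alpha-actinin of all fibres, had 1, 0 and 0, as had Ldb3 and Xirp2. Flnc, muscle filamin, had 2, 1 and 0 counts, the only member read in WT 2. The Mat KO value of Flnc lay below both WT libraries, as did that of 4.26% of protein-coding genes with a count in any library, but with counts this low no difference was detectable. Tcap, telethonin, which caps titin at the Z-disc, had 0 in each library.

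Calcium handling genes summed to 55, 0 and 0 counts. Atp2a1, the calcium pump of the fast fibre reticulum (ENSMUSG00000030730, chromosome 7 from 126445858 to 126463108), had 35, 0 and 0, and 21.9% of its exon length overlaps Rabep2 on the opposite strand. Pvalb, parvalbumin, the calcium buffer of fast fibres, had 14, 0 and 0, and Ryr1, the calcium release channel, 6, 0 and 0. Casq1, the calcium store protein of the reticulum, and Cacna1s, the voltage sensor that opens Ryr1, had 0 in every library. Of energy and oxygen genes, with 56, 0 and 0 counts, Ckm, muscle creatine kinase (chromosome 7 from 19404776 to 19422841), had 29, 0 and 0, Pygm, muscle glycogen phosphorylase, 19, 0 and 0, and Eno3, muscle enolase, 8, 0 and 0. Mb, myoglobin, the oxygen store of oxidative fibres, had 0 in each library, and 31.9% of its exon length overlaps genes of the opposite strand.

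**Figure D2:**
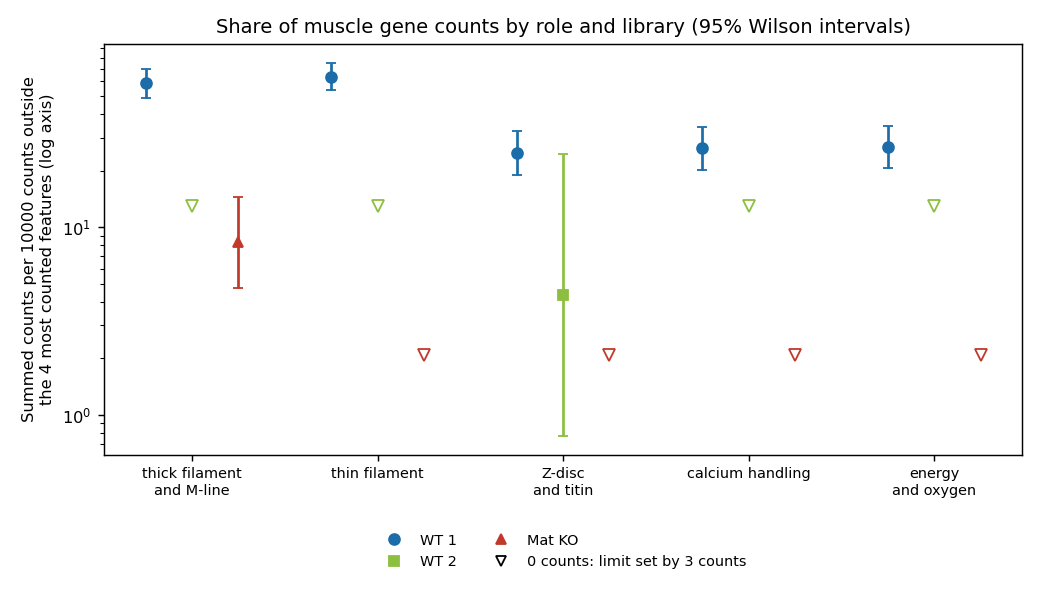
Sum of each role, as a share per 10000 counts that lie outside the 4 most counted features (y axis, log scale) in each library, with 95% Wilson intervals for counting error. Open triangles mark the limit that 0 counts allow, 13.0 per 10000 for WT 2 and 2.08 for Mat KO. In all 5 roles the WT 1 point lies above the point or limit of the Mat KO library.

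The isoforms in WT 1 were those of fast fibres. The 12 members of fast fibres all had a count there and summed to 234, while the 7 members of slow fibres summed to 4, all from Mybpc1, slow myosin-binding protein C, which had 4, 0 and 0 counts. Fast isoforms thus made up 98.3% of fast plus slow counts (95.8 to 99.3), or 99.2% when counts were taken per kilobase of exon. These sums count Atp2a1, Pvalb and Actn3 as fast with no slow partner among the members, and leave Myoz1 out. Atp2a2, the pump of slow fibres and of many other cells, is no member and had 16 counts in WT 1. Over families with a fast and a slow member the fast share was 97.8%. In 6 of 7 families with both kinds, no slow count was found. Slow heavy chain Myh7 had 0 against 71 for Myh1, Myh2 and Myh4 together, which leaves the fast share at 100.0% with a lower bound of 94.9%. Slow troponin T, Tnnt1, had 0 against 42 of Tnnt3 (lower bound 91.6%), and slow regulatory light chain Myl2 had 0 against 25 of Mylpf (86.7%). Slow light chain Myl3, slow troponin I Tnni1 and slow troponin C Tnnc1 had 0 against 11 each (74.1%). Myosin-binding protein C was the exception, with 9 counts of Mybpc2 and 4 of Mybpc1, a fast share of 69.2% (42.4 to 87.3). In the Mat KO library all 12 counts were of a fast isoform, Mybpc2, and in WT 2 neither kind was counted.

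**Figure D3:**
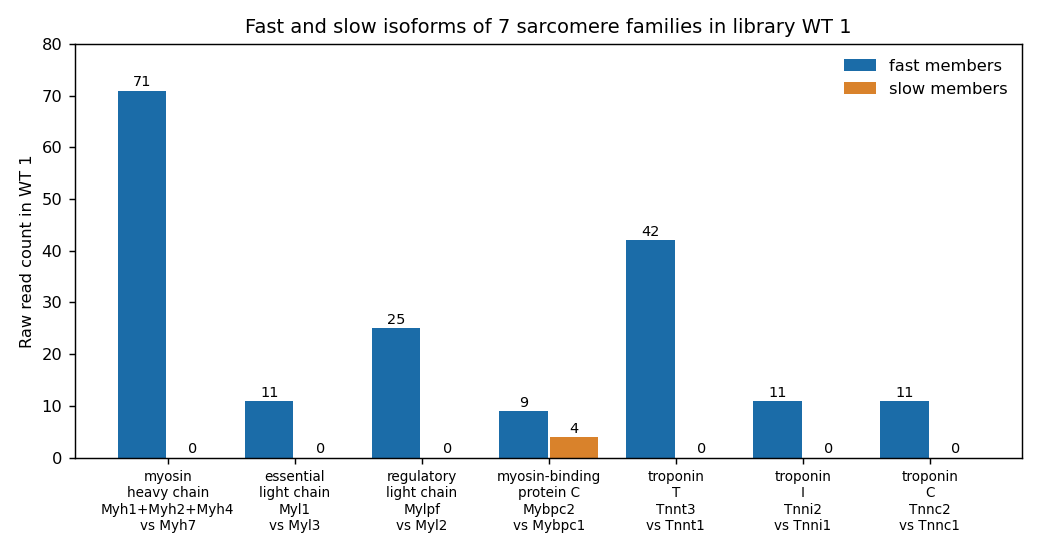
Raw counts (y axis, from 0) of fast (blue) and slow (orange) members of 7 sarcomere protein families in WT 1, a single library with no error bars. Slow members are at 0 in every family but myosin-binding protein C, where Mybpc1 has 4 counts beside 9 of Mybpc2.

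Levels between genes are compared per kilobase of merged exon in WT 1. Acta1 was highest at 31.2 counts per kilobase (exact Poisson interval 23.0 to 41.4), then Tnnt3 at 26.5 (19.1 to 35.9) and Mylpf at 23.5 (15.2 to 34.8), and these 3 did not differ beyond counting error. Tnnc2 at 13.8 (6.86 to 24.6), Pvalb at 13.4 (7.35 to 22.6), Atp2a1 at 10.1 (7.01 to 14.0), Myh4 at 10.1 (7.76 to 13.0) and Ckm at 9.96 (6.67 to 14.3) followed, with intervals that overlap each other and, for Tnnc2 and Pvalb, that of Mylpf. Myh4 therefore led by count but not per length. Among members with at least 6 counts, the genes of the giant proteins were lowest, Ryr1 at 0.275 (0.101 to 0.598), Neb at 0.263 (0.106 to 0.543) and Ttn at 0.146 (0.0848 to 0.233), with merged exons of 21838, 26582 and 116825 bases.

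Among members with a count, longer genes had fewer counts per kilobase. Over the 30 members with a count in WT 1, Spearman's rho across genes between counts per kilobase and exon length was -0.842, and between raw counts and exon length -0.505. The points share 1 library, and the first value is in part fixed because no counted gene can have less than 1 count over its length. Over all 42 members, those at 0 included, the values were weaker, at -0.328 and -0.16. Over 4209 nuclear protein-coding genes with a count, the corresponding values were -0.628 and -0.0835. Merged exons add the exons of all annotated transcripts, so the length of a gene with many isoforms is too large.

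**Figure D4:**
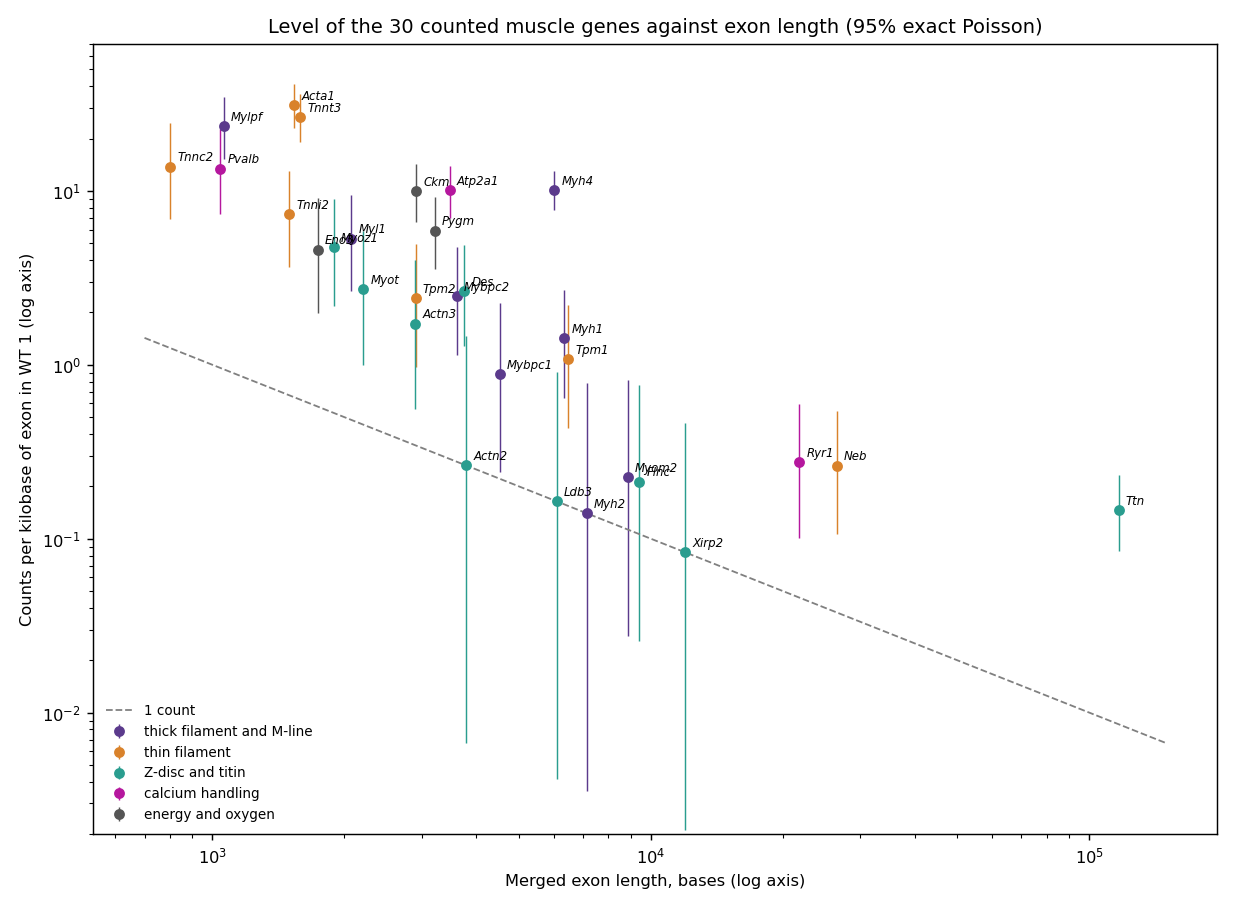
Counts per kilobase of merged exon in WT 1 (y axis, log scale) against merged exon length in bases (x axis, log scale) for the 30 counted members, coloured by role, with 95% exact Poisson intervals for counting error. The dashed line is the level of a single count. Acta1, Tnnt3 and Mylpf lie at the top left and Ttn at the far right, near 0.146.

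Genes outside the list that act beside it in muscle were counted more thinly, and by share they did not separate WT 1 from WT 2. Beside the numbers of counted genes below, 19.3%, 1.74% and 2.63% of protein-coding genes had a count in WT 1, WT 2 and Mat KO. Of 15 other genes of the reticulum and excitation-contraction coupling, 6, 1 and 0 were counted, with sums of 28, 1 and 0. Their share was 13.4 per 10000 (9.27 to 19.4) in WT 1 and 4.35 (0.767 to 24.6) in WT 2, a ratio of 3.08 (0.510 to 126). Atp2a2, the calcium pump of slow fibres and of many other cells, gave 16, 1 and 0 of these, and Hrc, a calcium-binding protein of the reticulum, 7, 0 and 0. The reticulum genes Jph1, Jph2, Jsrp1, Srl, Sln and Casq2 were among those at 0. Of 26 other sarcomere and turnover genes, 7 had counts, all in WT 1. Their sum was 12 or 5.74 per 10000, below the 13.0 that 0 counts allow in WT 2. They were led by the ankyrin repeat genes Ankrd2 with 4, 0 and 0 and Ankrd23 with 3, 0 and 0. Tmod4, Klhl41 and Smpx were among those at 0 in every library. Of 18 other muscle energy genes, 8 had counts in WT 1 and 2 in WT 2, with sums of 44, 3 and 0. The interval of their share was 15.7 to 28.2 per 10000 in WT 1 and 4.44 to 38.3 in WT 2, a ratio of 1.61 (0.518 to 8.13). Aldoa, an aldolase made in most tissues, gave 24, 2 and 0, Ak1, an adenylate kinase, 6, 0 and 0, and Cox7a1 and Slc2a4, the insulin-responsive glucose transporter, 4, 0 and 0 each. The energy genes Pgam2, Cox6a2, Ckmt2 and Ampd1 were among those at 0 in every library. Among 13 myogenic regulators, the muscle-determining factors Myod1, Myf5, Myf6 and Myog and the satellite cell gene Pax7 were at 0 in every library. The 13 counts of that list were all in WT 1 and came from Mef2a with 8, Mef2d with 3 and Mef2c with 2, which blood cells also express.

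Markers of other muscle types had low sums in WT 1. Among them 1 of 12 cardiac and developmental genes and 3 of 9 smooth muscle genes had a count there, beside 19.3% of protein-coding genes. Of 12 cardiac and developmental genes, Actc1, the cardiac alpha-actin, had 4, 0 and 0 counts, and Myh3, Myh6, Myl4, Myl7, Nppa, Nppb, Tnnt2, Tnni3, Ryr2, Pln and Mybpc3 had 0 in all libraries. Of 9 smooth muscle genes, the sums were 6, 0 and 52. Tagln had 4, 0 and 0 of these, and Mylk, the kinase of smooth and non-muscle myosin light chain, 1, 0 and 52, so in the Mat KO library this list too rested on 1 gene. Myh11, Acta2 and Cnn1 were at 0 in all libraries.

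Non-muscle relatives of the same protein families had counts in every library, with a higher summed share in Mat KO than in WT 1. The interval of WT 2 overlapped both, and the libraries were not alike gene by gene. The 18 genes summed to 143, 16 and 141 counts, or 68.4 (58.1 to 80.5), 69.5 (42.8 to 113) and 97.7 (82.9 to 115) per 10000. The WT 1 share was 0.984 times that of WT 2 (exact interval 0.585 to 1.77) and 0.700 times that of Mat KO (0.551 to 0.890), beside 46.0 and 24.0 times for the muscle members. This is a description, since the members were chosen with these counts known. In the order WT 1, WT 2, Mat KO, 16, 4 and 5 of the genes were counted. Of the 16 counted in WT 1, 9 were at 0 in both other libraries. Atp2a3, a calcium pump of blood cells, was one of these 9, with 15, 0 and 0 counts. Of the 30 muscle members counted in WT 1, 28 were at 0 in both others. That was the usual case among all 4349 genes with a count in WT 1, of which WT 2 shared 237 and Mat KO shared 293. The 28 of 30 therefore does not by itself set muscle genes apart. The sums outside WT 1 rested on few genes: Actb, beta-actin, had 44, 7 and 30 counts, Myh9, a non-muscle myosin heavy chain, 14, 0 and 61, and Myh10, another, 1, 0 and 28.

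Markers of other tissues were also counted in WT 1. Over 6 tendon and bone genes the sums were 430, 5 and 0, with 5, 2 and 0 genes counted. They were led by the collagen gene Col1a1 with 189, 1 and 0. Of the tendon genes, Scx had 4, 0 and 0 counts and Tnmd was at 0 in every library. Over 6 liver genes they were 401, 26 and 0 with 6, 2 and 0 genes counted, and over 5 adipocyte genes 42, 0 and 0 with 4, 0 and 0 genes counted, Plin1 being at 0 throughout. The sum of the adipocyte list was led by Car3 with 20, 0 and 0, a gene that is not restricted to adipocytes. Cfd had 10, 0 and 0, Adipoq 8, 0 and 0 and Fabp4 4, 0 and 0. Per 10000 the tendon and bone, liver and adipocyte lists lay at 206 (187 to 226), 192 (174 to 211) and 20.1 (14.9 to 27.1) in WT 1, beside 200.0 for the muscle members. In WT 2 the tendon and bone list lay at 21.7 (9.29 to 50.8) and the liver list at 113 (77.2 to 165), so the liver share of WT 1 was 1.70 times that of WT 2 (1.14 to 2.63). The adipocyte list had no count in WT 2, which allows up to 13.0. In the Mat KO library they were at 0, and 6 pancreatic genes had 0, 9 and 465 counts with 0, 4 and 6 genes counted. Of 6 endothelial and nerve genes, 4, 0 and 3 had counts, with sums of 6, 0 and 25. The part of RNA from other tissues in the muscle counts was not tested.

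**Figure D5:**
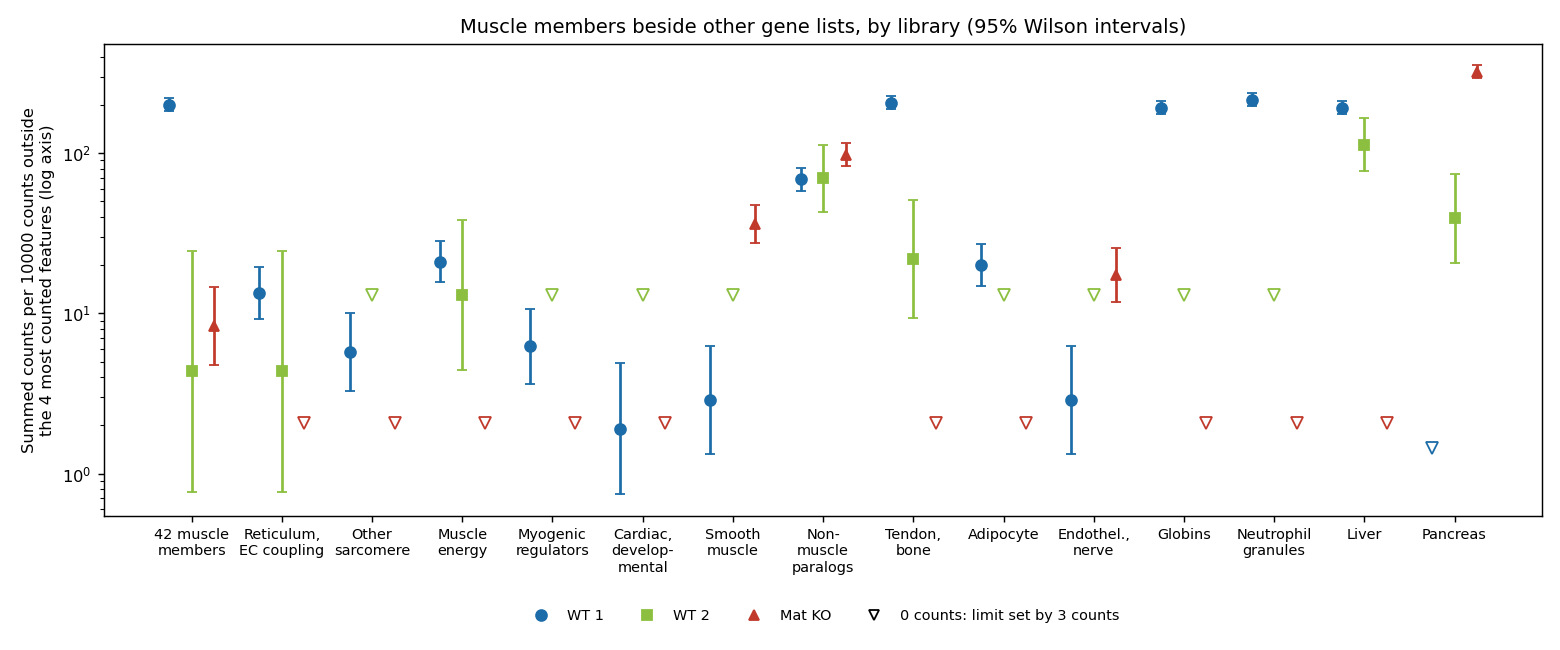
Sums per 10000 counts that lie outside the 4 most counted features (y axis, log scale) of the 42 members and 14 other gene lists in each library, with 95% Wilson intervals, and open triangles at the limit that 0 counts allow. The muscle members of WT 1 stand at 200.0, near the globin, granule, bone and liver lists of that library, while the non-muscle relatives lie between 68.4 and 97.7 in all 3 libraries.

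The test across genes called no muscle gene different between the genotypes. Of 437 genes that passed the filter on low counts, edgeR's quasi-likelihood test called 0 at a false discovery rate of 0.05 (0%), and 0 had an unadjusted p under 0.05. The filter kept 9 members, of which 0 were called, and DESeq2 and limma-voom also called 0 of 437. At an unadjusted p under 0.05 DESeq2 had 7 genes (1.6%) and limma-voom 20 (4.58%), with no member among them. The log2 fold change, Mat KO against WT, was -4.55 for Myh4 (standard error 4.65, edgeR adjusted p = 0.729), -4.22 for Acta1 (4.62, 0.729), -4.04 for Tnnt3 (4.61, 0.729) and -3.80 for Atp2a1 (4.57, 0.729). Ckm lay at -3.55, Mylpf at -3.36, Pygm at -3.01, Ttn at -2.87 and Mybpc2 at -0.07. The first 8 of these 9 had no count outside WT 1, which alone carried them past the filter, so a negative value was the only one possible for them. The median of -3.55 over the 9, beside -0.27 over all 437, describes WT 1 and no genotype. With WT 1 left out, Mybpc2 was the only one of the 9 with a count, 0 against 12, and its log2 fold change of 2.22 has no test.

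The Mat KO library has no replicate, and the p-values rest on the spread between the 2 WT libraries, which may be technical. A difference in muscle genes between genotypes cannot be told apart from the difference between WT 1 and WT 2.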

How the data were processed

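Polysomal RNA was sequenced from 2 WT libraries and 1 Mat KO library, grouped by the title and genotype labels. The submitters' processing notes name Trimmomatic, HISAT2 2.1.0, HTSeq 0.11.2 and the build GRCm38. The authors deposited raw counts of reads per Ensembl gene, and the sources used here do not give the annotation release, strand setting or read length. Each table's 5 summary lines, which name no gene, entered neither library sizes nor tests. Reads recorded numbered 427500, 2035709 and 1259524 (WT 1, WT 2, Mat KO), of which 15.1%, 11.8% and 9.99% were assigned to genes, 33.5%, 74.3% and 66.1% fell on overlapping genes, 43.9%, 9.68% and 19.6% on no gene, and 7.44%, 4.27% and 4.27% aligned to several places.

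Names, positions and merged exon lengths came from GENCODE M21 (GRCm38). The members and gene lists were chosen with earlier results of these data known. The rule for named genes was every member with its counts, and of each other list up to the 4 most counted genes; genes at 0 were named after their values were seen. Shares leave the 4 most counted features out of the total and have 95% Wilson intervals, exact Poisson intervals for levels and exact binomial intervals for ratios (SciPy 1.17.1). Without molecular identifiers, intervals and fold bounds take each read as a molecule and cover counting error only. All genes were tested with edgeR 4.0.16 (R 4.3.3), with TMM, filterByExpr at a minimum count of 10 and total of 15, prior count 2 and Benjamini-Hochberg adjustment. The design leaves 1 residual degree of freedom. Standard errors are the absolute log2 fold change over the square root of F. DESeq2 1.42.0 and limma 3.58.1 were alternatives. Tested on simulated data for Mat KO against WT, edgeR called 81 of 92 genes changed 16-fold and 63 of 91 changed 4-fold at a dispersion of 0.01, and 0 of 59 changed 16-fold at the estimated dispersion of 3.88.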

Additional observations from a re-analysis of the deposited data

How the results depend on the processing

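The count of 0 genes called at the false discovery rate held under the other size factors, total counts only, no filter on low counts, a filter at a mean of 50 counts, library sizes without the 4 most counted features, DESeq2 and limma-voom. At the estimated dispersion the simulated 16-fold changes were not called either, so a count of 0 says little. Genes at least 2-fold apart numbered 379 of 437 with all libraries, 179 higher and 200 lower in Mat KO. With a WT library left out no test could be fitted. Without WT 1 they numbered 289 of 313, 235 higher and 54 lower, and without WT 2 377 of 433, 166 higher and 211 lower. The log2 fold change of Mybpc2, -0.07, turned to 0.97 with DESeq2-type size factors, 0.40 with total counts only, 0.26 with no filter, 1.36 with DESeq2, 0.62 with limma-voom and 2.22 without WT 1 (-0.92 without WT 2), where the median of all genes moved from -0.27 to 0.75, 0.31, -0.69, 1.04, 0.53 and 2.55; relative to that median it went from 0.20 to 0.21, 0.08, 0.95, 0.32, 0.09 and -0.34. The other 8 tested members stayed negative wherever they had a count. Without WT 1 they had none, and the filter at a mean of 50 counts left no member.

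Per 10000 of all gene-assigned counts the members' sums were 64.8, 0.0418 and 0.953 in WT 1, WT 2 and Mat KO. Per 10000 nuclear protein-coding counts other than Lars2 they were 225, 8.2 and 15.0. Leaving out the most counted member of each library gave 171, 0 and 0. Leaving out the 19 members whose exons overlap another gene, all on the opposite strand, gave 133 for WT 1 and 0 for Mat KO. A minimum of 2 or 3 counts left 0 members in WT 2. WT 1 was highest under each of these. The fast share of WT 1 stayed between 97.7% and 99.2% in the alternatives, none of which counted Atp2a2 as slow. No paired analysis was possible with 1 Mat KO library, which the labels also give no replicate number. Depth limits WT 2 most, where 0 counts allow 13.0 per 10000.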
